A study of Mus musculus with 18 samples.

Results

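Potassium channel genes were taken as every gene on the array whose symbol starts with Kcn. The array carried 119 probes for 80 such genes, of 16593 named genes in all, and 57 of the 80 had a probe detected above background on 3 or more of the 18 arrays. Each of these 57 genes was read from 1 probe, the one with the highest mean log2 signal. The study compared RNA from 3 dissected brain regions of male mice aged 4 to 5 months with one-colour Illumina bead arrays. The control groups were wild-type C57BL/6J mice. The knockout groups were T1R3 knockout mice (T1R3KO), which lack a subunit of the sweet and umami taste receptors. Their line had a minimum of 4 generations of crossing with C57BL/6J. Cortex, hippocampus and hypothalamus were each taken from 3 animals per genotype, and the series states that 18 animals were used, so that each array came from its own animal. No group received a treatment, and all were kept on standard chow. Dissected tissue holds many cell types, so fewer cells of a type and less RNA per cell cannot be told apart.

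Potassium channels let potassium leave the cell, which ends action potentials, sets the resting potential and limits repetitive firing. Voltage-gated channels are built from several pore subunits, which can be joined by electrically silent modifier subunits and by cytoplasmic or membrane accessory subunits. Calcium- and sodium-activated channels couple firing or ion entry to repolarisation, inward rectifiers hold the membrane near rest and include the channels opened by G proteins, and tandem-pore channels carry the leak current. Neurons in different brain regions are known to combine these families differently, and this sets much of their firing pattern. The 57 measured genes comprised 15 of 23 voltage-gated pore subunits, 5 of 9 modifiers and 11 of 12 accessory subunits. They also held 7 of 10 calcium- and sodium-activated subunits, 9 of 12 inward rectifiers, 9 of 13 tandem-pore channels and Kcnrg, a channel regulator. Families were assigned by symbol, so the calcium- and sodium-activated family includes Kcnu1, which is pH-gated.

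The 23 genes with no usable probe comprised 20 detected on 0 arrays and 3 detected on 1 or 2 arrays. The 20 were Kcna7, Kcna10, Kcnd1, Kcnd3, Kcne3, Kcng1, Kcng3, Kcnh4, Kcnh6, Kcnj1, Kcnj5, Kcnj15, Kcnk7, Kcnk15, Kcnk18, Kcnn3, Kcnn4, Kcnq1, Kcns3 and Kcnv2. The other 3 were Kcnh7, Kcnk5 and Kcnmb1. A probe at background gives no level, so nothing is said here about whether these genes were transcribed.

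Promoter sequence is shown for the genes on which the results turn and whose start is in the RefSeq table of build GRCm38.p6. These are Kcnh5, Kcnq5 and Kcnip4, which were lower in the knockout, and Kcnk4, Kcna5, Kcne1l and Kcnh2, which were among the most region-restricted members. Each line gives the 100 bases just before a transcription start, 5′ to 3′ on the gene's own strand, with CG dinucleotides in capitals.
Kcnh5, chr12:75177333-75177432, minus strand: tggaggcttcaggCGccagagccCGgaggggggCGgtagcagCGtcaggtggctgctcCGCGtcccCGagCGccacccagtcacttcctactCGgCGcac
Kcnq5, first start, chr1:21962651-21962750, minus strand: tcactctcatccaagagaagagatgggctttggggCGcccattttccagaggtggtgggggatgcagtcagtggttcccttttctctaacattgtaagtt
Kcnq5, second start, chr1:21961943-21962042, minus strand: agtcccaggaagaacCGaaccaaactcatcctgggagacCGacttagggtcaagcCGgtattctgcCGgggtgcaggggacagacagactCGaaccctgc
Kcnip4, first start, chr5:49285660-49285759, minus strand: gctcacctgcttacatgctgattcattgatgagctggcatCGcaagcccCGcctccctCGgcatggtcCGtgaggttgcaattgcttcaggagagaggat
Kcnip4, second start, chr5:48599683-48599782, minus strand: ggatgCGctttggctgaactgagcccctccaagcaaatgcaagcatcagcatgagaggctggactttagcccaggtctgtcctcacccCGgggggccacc
Kcnk4, chr19:6934516-6934615, minus strand: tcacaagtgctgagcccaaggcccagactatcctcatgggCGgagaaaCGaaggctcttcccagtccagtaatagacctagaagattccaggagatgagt
Kcna5, chr6:126535556-126535655, minus strand: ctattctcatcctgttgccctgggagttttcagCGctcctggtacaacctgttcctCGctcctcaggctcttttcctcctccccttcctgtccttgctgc
Kcne1l, chrX:142306199-142306298, minus strand: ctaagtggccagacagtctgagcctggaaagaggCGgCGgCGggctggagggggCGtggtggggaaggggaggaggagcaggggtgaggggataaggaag
Kcnh2, chr5:24329592-24329691, minus strand: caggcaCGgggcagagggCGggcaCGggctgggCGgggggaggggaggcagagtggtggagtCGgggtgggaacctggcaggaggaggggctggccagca

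Over the 250 bases before the start, the Kcnh5 promoter held 16 CG dinucleotides, more than 74.6% of the 32851 promoters in the table. The second Kcnq5 start and Kcnh2 held 14 each, whereas Kcnk4, Kcna5 and the first Kcnq5 start held 3 each. The median was 6 over all promoters and 7 over the 63 promoters of the 43 measured Kcn genes in the table. Members that were high in cortex (Kcnh5 and Kcnk4) and in hypothalamus (Kcnh2 and Kcna5) thus each included a CG-rich and a CG-poor start. The hexamer TATAAA, searched on both strands, occurred in none of the 9 windows shown, in 2 of the 63 Kcn promoters (3.17%) and in 12.4% of all promoters. Which start the array probes read was not tested, and a count of letters in a window says nothing about factor binding.

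The arrays were of even quality. The mean deposited signal ranged from 788 to 1388 per array, 52.1% to 58.1% of the 25697 probes were detected, and 49 to 55 of the 57 Kcn genes were detected on each array. Correlations between arrays of a group lay between 0.982 and 0.996, with the lowest in knockout cortex. The number of arrays limits the precision of every value. Marker genes followed the labelled tissue: the mean log2 signal of 21 hypothalamus markers was 11.95 to 12.15 in hypothalamus and 7.63 to 8.74 elsewhere. The probe for Tas1r3, the targeted gene, was detected on 1 of the 18 arrays, at 5.22 to 6.14 on the log2 scale in both genotypes, so it could not check the genotype labels. Some cortex arrays and 1 hippocampus array stood apart from the rest of their groups. Striatum markers (17 of 24 measured) had a mean of 10.96 and 10.23 in knockout cortex arrays 1 and 3 and 10.16 in wild-type cortex array 2, against 9.11 to 9.51 in the other 3 cortex arrays. Choroid plexus markers (7 of 10 measured) had a mean of 7.85 in wild-type hippocampus array 1, against 11.13 to 11.75 in the other 5 hippocampus arrays.

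Wild-type brain regions were compared first. The measured Kcn genes were, as a list, highest in cortex and lowest in hypothalamus. Of the 57 genes, 17 were highest in cortex and passed the test against both other regions (6.87% of all genes tested did so), 5 were highest in hippocampus by this rule (4.04% of all genes) and 7 were highest in hypothalamus (17.9% of all genes). Conversely, 24 were lowest in hypothalamus and passed against both others (16.3% of all genes), 5 were lowest in hippocampus (3.19% of all genes) and 0 were lowest in cortex (5.2% of all genes). In 17 genes all 3 region pairs differed, and in 7 none did. The matching shares of all genes were not counted, so these counts do not set Kcn genes apart from other genes. The plot of wild-type levels shows the spread of the arrays beside the differences between regions.

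**Figure D1:**
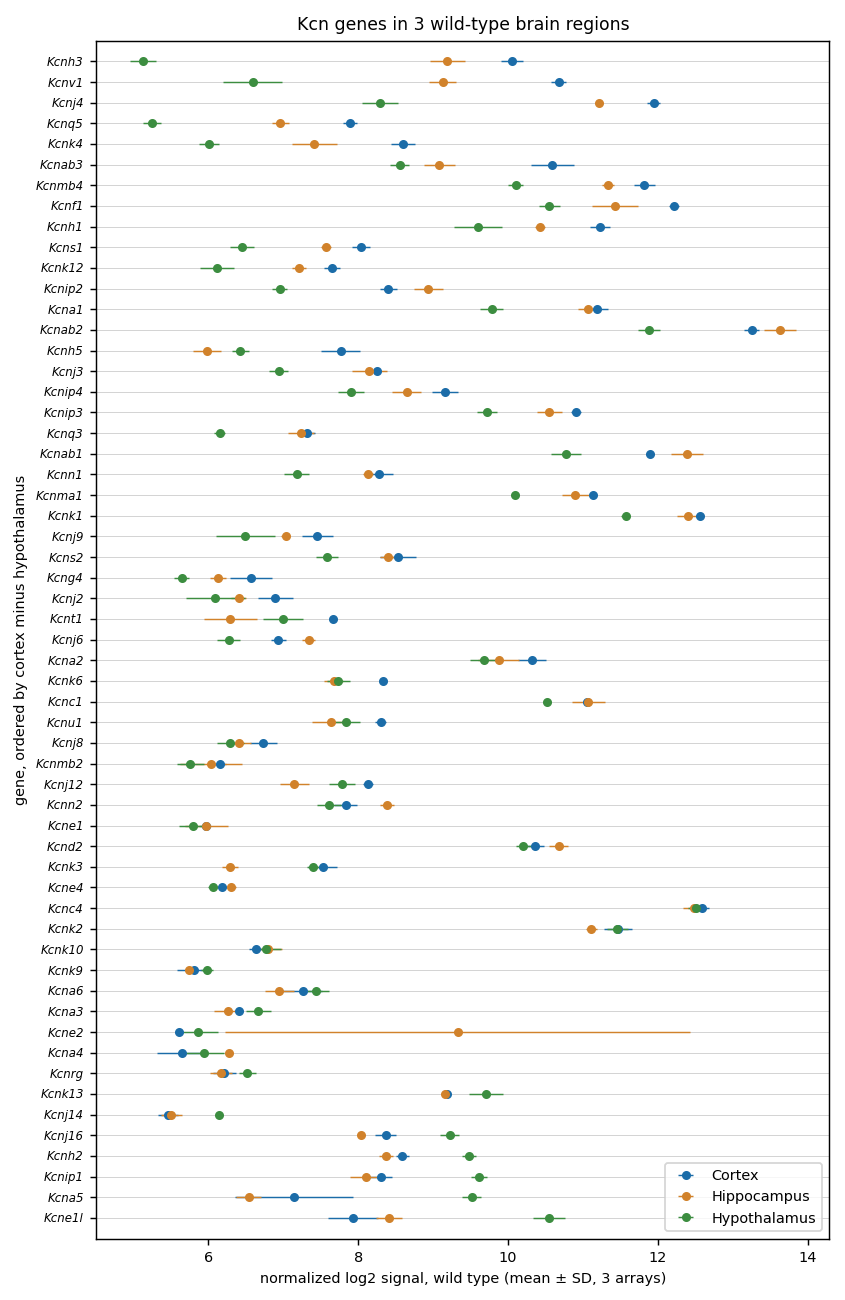
Normalized log2 signal of the 57 measured Kcn genes (y axis, ordered by cortex minus hypothalamus) in wild-type cortex, hippocampus and hypothalamus. Points are means and bars are SD over 3 arrays; signals of different genes come from different probes and are not to be set against each other. In the upper rows, from Kcnh3 to Kcnab2, the hypothalamus lies below both other regions, and at the bottom it lies above them, for Kcne1l, Kcna5, Kcnip1, Kcnh2 and Kcnj16.

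Test counts by region pair carried the same order. Cortex and hypothalamus differed in 41 of 57 Kcn genes by limma with Benjamini-Hochberg adjustment over all probes (51.4% of all genes did), of which 34 were higher in cortex (24.9% of all genes) and 7 lower (26.5% of all genes). Hippocampus and hypothalamus differed in 41 (43.8% of all genes), of which 27 were higher in hippocampus (21% of all genes) and 14 lower (22.8% of all genes). Cortex and hippocampus differed in 26 (19.9% of all genes), of which 20 were higher in cortex (10.5% of all genes) and 6 lower (9.4% of all genes). The median log2 difference of the Kcn genes was 0.67 for cortex minus hypothalamus, 0.49 for hippocampus minus hypothalamus and 0.23 for cortex minus hippocampus, where that of all genes was -0.01, -0.01 and 0.01. With median scaling in place of quantile normalization the median of all genes for cortex minus hippocampus was 0.11, and that of the Kcn genes was 0.33.

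Among the voltage-gated pore subunits, Kcnh3, a forebrain member of the ether-a-go-go family, had the largest difference between regions. Its log2 signal was 10.17, 9.89 and 10.10 in the wild-type cortex arrays, 8.95, 9.42 and 9.20 in hippocampus and 5.10, 4.96 and 5.32 in hypothalamus. The probe was detected on every cortex and hippocampus array and on no hypothalamus array of either genotype. Against the detection floor, wild-type hypothalamus was at least 19.02-fold lower than cortex (adjusted p = 2.27e-13) and at least 10.4-fold lower than hippocampus (adjusted p = 2.08e-12). These bounds use, on each array, the lowest normalized value among detected probes. Kcnq5, a subunit of the slow M-type current that muscarinic receptors suppress, was likewise undetected in hypothalamus and was at least 4.24-fold higher in cortex (adjusted p = 9.48e-10). Its cortex values were 7.90, 7.80 and 7.97 and its hippocampus values 7.05, 6.99 and 6.83, with no overlap. The relatives of Kcnh3 had other patterns: Kcnh5 was high in cortex (7.76 ± 0.26 SD, n = 3) against hypothalamus (6.43 ± 0.12) and hippocampus (5.98 ± 0.19, detected on 1 of 3 arrays), and Kcnh2, which carries the rapid delayed rectifier of the heart, was highest in hypothalamus. Kcnh2 read 9.48 ± 0.10 there, 8.59 ± 0.09 in cortex and 8.37 ± 0.10 in hippocampus, a log2 difference of -0.89 ± 0.09 (SE) for cortex minus hypothalamus (adjusted p = 6.61e-07). Of the 15 pore genes, 8 were higher in cortex than in hypothalamus (24.9% of all genes were) and 2 were lower (26.5% of all genes).

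The 5 measured modifier subunits form no channel alone and alter the gating of Kcnb subunits. All 5 were higher in cortex than in hypothalamus (24.9% of all genes were). Their median log2 difference was 1.59, where that of all genes was -0.01. Kcnv1 was the most graded of them. Its values were 10.57, 10.67 and 10.78 in cortex, 9.29, 9.15 and 8.94 in hippocampus and 7.04, 6.32 and 6.40 in hypothalamus. All 3 groups were separate, with cortex 2.93-fold above hippocampus (adjusted p = 3.23e-06) and 16.96-fold above hypothalamus (adjusted p = 5.32e-12). Kcnf1, one of the 5 members of highest mean log2 signal, went from 12.22 ± 0.07 through 11.42 ± 0.31 to 10.55 ± 0.14 in the same order.

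Of the 11 accessory subunits, 3 were highest in cortex and past the test against both other regions (6.87% of all genes), 3 in hippocampus (4.04% of all genes) and 2 in hypothalamus, the last a share near the 17.9% of all genes. The 3 cytoplasmic beta subunits, aldo-keto reductase relatives that bind Kcna channels, did not share a peak. Kcnab3 was highest in cortex, at 10.59 ± 0.29, against 9.08 ± 0.21 in hippocampus and 8.55 ± 0.13 in hypothalamus (cortex minus hippocampus adjusted p = 0.000135). Kcnab1 and Kcnab2 were highest in hippocampus, Kcnab2 at 13.63 ± 0.21 against 13.25 ± 0.10 in cortex (adjusted p = 0.0181) and 11.88 ± 0.14 in hypothalamus (adjusted p = 1.80e-09). For Kcnab1 the corresponding means were 12.39, 11.89 and 10.77. The calcium-binding partners of Kcnd channels also differed: Kcnip3 and Kcnip4 were highest in cortex and Kcnip1 in hypothalamus. Kcnip1 read 9.61 ± 0.11 in hypothalamus, 8.30 ± 0.16 in cortex and 8.10 ± 0.22 in hippocampus, with an adjusted p of 2.97e-05 against cortex. Among the single-pass membrane subunits, Kcne1l was 6.13-fold higher in hypothalamus than in cortex (adjusted p = 1.31e-08), at 10.79, 10.39 and 10.46 against 7.71, 8.32 and 7.76.

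Among the inward rectifiers, 6 of 9 were higher in cortex than in hypothalamus (24.9% of all genes) and 2 were lower, a share near the 26.5% of all genes. Kcnj4, a strongly rectifying channel of forebrain neurons, read 11.94 ± 0.09 in cortex, 11.21 ± 0.05 in hippocampus and 8.29 ± 0.24 in hypothalamus. Cortex was 12.6-fold above hypothalamus (adjusted p = 5.54e-13). The subunits of G-protein-gated channels had their own order. Kcnj6 was highest in hippocampus (7.34 ± 0.09) against cortex (6.94 ± 0.10, adjusted p = 0.021) and hypothalamus (6.27 ± 0.15), whereas Kcnj3 and Kcnj9 did not differ past the threshold between cortex and hippocampus and were higher in cortex than in hypothalamus. Kcnj16, a pH-sensitive partner subunit known from glia and kidney, was highest in hypothalamus, at 9.22 ± 0.12 against 8.37 ± 0.14 in cortex and 8.04 ± 0.03 in hippocampus. Among the tandem-pore genes, 4 of 9 were higher in cortex than in hypothalamus (24.9% of all genes) and 1 was lower (26.5% of all genes). Their median log2 difference was 0.12. For hippocampus against hypothalamus 3 were higher (21% of all genes) and 3 lower (22.8% of all genes), with a median of -0.06. The mechanically gated Kcnk4 was highest in cortex (8.60 ± 0.16 against 7.41 ± 0.30 in hippocampus and 6.01 ± 0.14 in hypothalamus). Kcnk1 and Kcnc4, 2 more of the 5 members of highest mean log2 signal, differed less: Kcnk1 was 1.99-fold higher in cortex than in hypothalamus and Kcnc4 differed in no pair.

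Among the calcium- and sodium-activated genes, 5 of 7 were higher in cortex than in hypothalamus (24.9% of all genes) and 0 were lower (26.5% of all genes). The 5 include Kcnu1, which is pH-gated and was placed here by its symbol. Kcnmb4, the neuronal beta subunit of the large-conductance channel, was 3.30-fold higher in cortex than in hypothalamus (adjusted p = 4.78e-09), and the pore gene Kcnma1 was 2.05-fold higher (adjusted p = 1.15e-06). Kcnt1, a sodium-activated channel, differed in all 3 pairs and was lowest in hippocampus. Kcnn2, the small-conductance channel of the afterhyperpolarisation, was highest in hippocampus (8.38 ± 0.09 against 7.83 ± 0.16 in cortex and 7.61 ± 0.16 in hypothalamus).

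The same region contrasts among the knockout arrays, which come from other animals, were added after the data were seen. Cortex and hypothalamus differed in 41 Kcn genes there (49.2% of all genes), hippocampus and hypothalamus in 44 (43.9% of all genes), and cortex and hippocampus in 25 (19.5% of all genes). For cortex and hypothalamus 37 genes were called in both genotypes, which is 90.2% of either list (77.2% and 80.7% of the wild-type and knockout lists over all genes). For hippocampus and hypothalamus 38 were called in both, 92.7% of the wild-type list and 86.4% of the knockout list (79.1% and 78.97% over all genes). For cortex and hippocampus 18 were called in both, 69.2% of the wild-type list and 72% of the knockout list (66.8% and 68.1% over all genes). Whether the Kcn shares differ from those of all genes was not tested. Every gene called in both had the same direction. The gene farthest from equal differences was Kcna1, at 0.12 in wild-type and -1.59 in knockout arrays for cortex minus hippocampus, and at 1.41 and -0.18 for cortex minus hypothalamus.

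**Figure D2:**
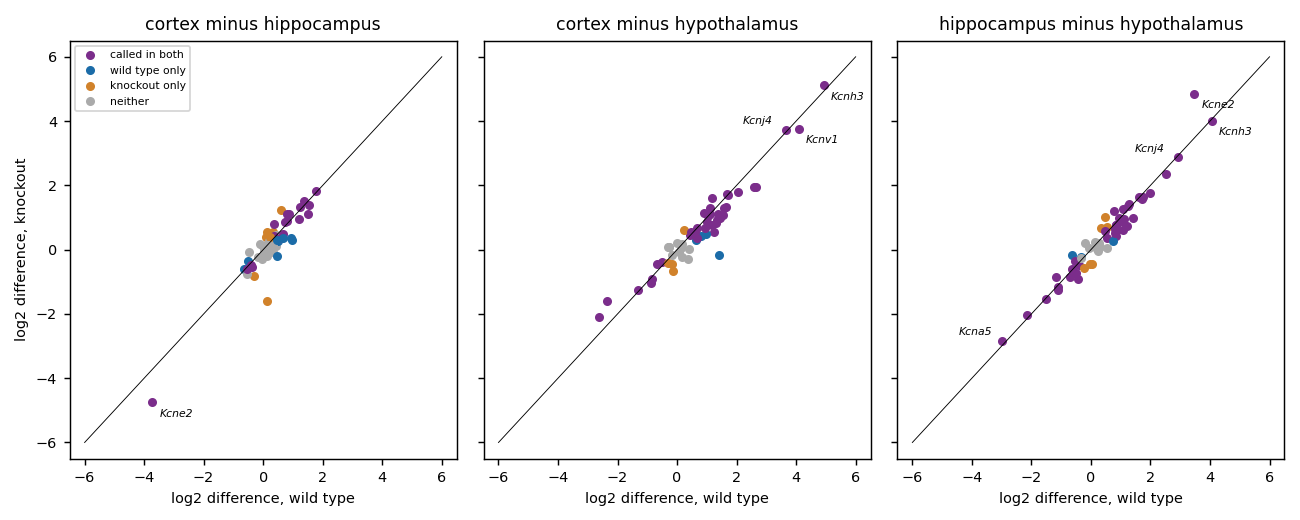
Log2 difference between 2 regions in wild-type arrays (x axis) and in knockout arrays (y axis) for 57 Kcn genes, 1 panel per region pair; the line marks equal differences, and colours mark the genotype in which the adjusted p was under 0.05. Kcnh3, Kcnv1 and Kcnj4, with large differences, lie near the line, and Kcna1 lies below it at 1.41 and -0.18 in the middle panel. Kcne2, also with large differences, lies off the line, at -3.73 and -4.75 in the left panel and 3.47 and 4.84 in the right panel.

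The 57 genes alone grouped the arrays by tissue, with 1 exception. In a principal component analysis of their log2 values, the first component held 67.4% of the variance and placed the 6 hypothalamus arrays at 6.43 to 6.64 and the other 12 at -4.59 to -2.33. The second held 23.3% and separated the 6 cortex arrays, at 2.56 to 3.63, from 5 of the 6 hippocampus arrays, at -4.32 to -3.51. The remaining one, wild-type hippocampus array 1, lay at 0.18. Kcne2 had a weight (loading) of -0.757 on the second component. With Kcne2 left out, a step chosen once the values were known, the second component held 12.3% of the variance. Wild-type hippocampus array 1 then lay at -2.03 on it, beside the other hippocampus arrays at -2.67 to -2.21. In wild-type arrays 51.4% of all genes differed between cortex and hypothalamus, and 43.8% between hippocampus and hypothalamus. Whether other gene sets of this size group the arrays alike was not tested.

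Kcne2 is a membrane subunit known in brain from the choroid plexus epithelium, where it pairs with Kcnq1. Its log2 signal was 11.03 and 11.21 in wild-type hippocampus arrays 2 and 3 and 10.25, 10.58 and 10.47 in the knockout hippocampus arrays, but 5.75 in wild-type hippocampus array 1 and 5.05 to 6.12 in all cortex and hypothalamus arrays. The choroid plexus markers moved with it: Ttr, the transthyretin gene, read 11.32 on that array and 14.85 to 15.14 on the other 5, and Folr1 read 5.15 against 9.34 to 10.38. In wild-type arrays Kcne2 was at least 9.48-fold lower in cortex, where it was not detected, than in hippocampus (adjusted p = 0.0098). Without hippocampus array 1 the log2 difference was -5.52 (adjusted p = 3.36e-10). Without array 2 or array 3 the call was lost, with differences of -2.88 and -2.79 and an adjusted p of 0.0608 or 0.057. The part of choroid plexus tissue in the dissected hippocampus was not tested.

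Kcna5, a delayed rectifier, moved with another marker list. It read 9.30 to 9.64 on the 6 hypothalamus arrays and 6.36 to 6.96 on the 6 hippocampus arrays, without overlap. Cortex arrays were spread, at 8.81, 6.92 and 8.03 in the knockout and 6.44, 7.99 and 7.001 in the wild type. The 3 cortex arrays near or above 8 were the 3 with high striatum markers, whereas the hypothalamus arrays, with Kcna5 higher still, had a striatum marker mean of 9.37 to 9.55. The same 3 cortex arrays were also the highest in hypothalamus markers, with means of 8.74, 8.26 and 8.22 against 7.63 to 7.82 on the other 3. Members of that list did not all move alike. Trh, the thyrotropin-releasing hormone gene, read 10.21, 9.72 and 9.50 against 6.79 to 7.04. Npy, the neuropeptide Y gene, was lower on these 3 arrays, at 12.32, 12.55 and 12.39 against 12.64 to 12.85. Wild-type cortex was 5.16-fold below hypothalamus (adjusted p = 8.92e-05), and without the 3 high cortex arrays the log2 difference was -2.79 (adjusted p = 7.09e-08). The part of striatal or hypothalamic tissue in the cortex samples was not tested. Kcne1l was highest on the same 3 cortex arrays, at 8.61, 8.06 and 8.53 in the knockout and 7.71, 8.32 and 7.76 in the wild type.

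**Figure D3:**
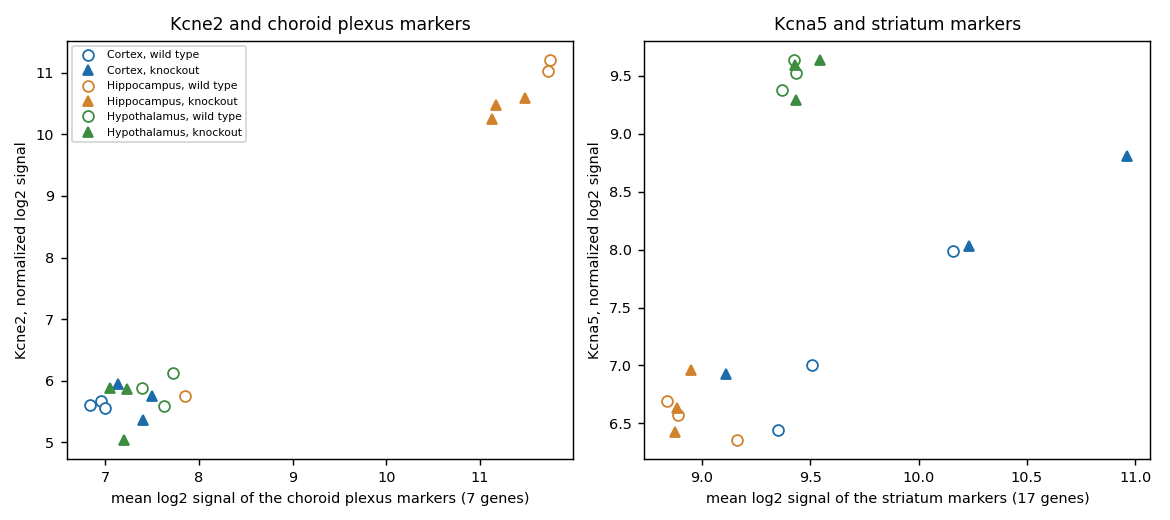
Log2 signal of Kcne2 against the mean log2 signal of 7 choroid plexus markers (left) and of Kcna5 against that of 17 striatum markers (right), 1 point per array, coloured by region, open for wild type and filled for knockout. In the left panel 1 wild-type hippocampus array (Kcne2 at 5.75) lies with the cortex and hypothalamus arrays, and in the right panel the 3 cortex arrays with the highest striatum marker means have the highest Kcna5 signals among cortex arrays.

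The second question was which Kcn genes differed between T1R3 knockout and wild type. In cortex 3 of 57 passed the threshold (2.59% of all genes did), and all 3 were lower in the knockout (1.38% of all genes were called and lower). They were Kcna1, a dendrotoxin-sensitive channel of axons whose loss causes epilepsy in mice, Kcnq5 and Kcnip4. At an unadjusted p under 0.05 there were 14 genes (15% of all genes). Knockout and wild-type values were fully separate in 13 genes (17.2% of all genes), 11 of which were lower in the knockout (7.88% of all genes). The median log2 difference of the 57 genes was -0.02, and that of all genes 0.02.

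Kcna1 had the largest difference and the widest spread. Its log2 signal was 10.79, 9.22 and 8.34 in knockout cortex and 11.10, 11.12 and 11.35 in wild-type cortex. The groups did not overlap, although knockout array 1 lay close to the wild-type arrays and array 3 far below them. The log2 difference was -1.74 ± 0.39 (SE, adjusted p = 0.0275 by limma). This SE uses 1 spread shared by all 6 groups. The SD over 3 arrays was 1.24 in knockout cortex and 0.14 in wild-type cortex, so neither the SE nor the p-value measures the spread in knockout cortex. In hippocampus the values overlapped, at 11.23, 10.94 and 10.95 against 11.23, 10.98 and 10.999, and hypothalamus was at 9.94, 9.76 and 9.20 against 9.94, 9.79 and 9.62. The Kcna1 difference was -1.19 (adjusted p = 0.101) without knockout cortex array 3. Without knockout array 2 or wild-type array 2 it also missed the threshold (adjusted p = 0.0593 and 0.0594).

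Kcnq5 and Kcnip4 differed by less but with tighter groups. Kcnq5 read 7.13, 7.20 and 7.28 in knockout cortex and 7.90, 7.80 and 7.97 in wild-type cortex, a log2 difference of -0.69 ± 0.15 (adjusted p = 0.0229). Its hippocampus values were 7.04, 7.11 and 6.35 against 7.05, 6.99 and 6.83 and overlapped, and in hypothalamus it was at background in both genotypes. Kcnip4, which slows the inactivation of Kcnd channels, read 8.63, 8.63 and 8.59 in knockout cortex and 9.30, 8.97 and 9.20 in wild-type cortex. Its log2 difference was -0.54 ± 0.12 (adjusted p = 0.0194) in cortex. In hippocampus its values were 8.28, 8.39 and 8.36 against 8.82, 8.69 and 8.44, again without overlap (-0.31, adjusted p = 0.328), and in hypothalamus the difference was 0.18 (adjusted p = 0.662). The cortex call was lost for all 3 genes when any 1 of knockout array 3, wild-type array 1 and wild-type array 3 was left out, which left a count of 0 genes each time.

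Other gene lists moved in the same cortex comparison. Striatum markers had a log2 difference above 0 in 17 of 17 genes (median 0.40), with none past the threshold, and their mean ranged from 9.11 to 10.96 in knockout and from 9.35 to 10.16 in wild-type cortex arrays. Without the 3 cortex arrays high in these markers, 1 knockout cortex array remains, so no test is given for that setting here. The log2 difference was then -0.74 for Kcnq5, -0.62 for Kcnip4 and -2.01 for Kcna1. Hypothalamus markers had a difference above 0 in 18 of 21 genes (median 0.21) and choroid plexus markers in 6 of 7 (median 0.36), none past the threshold. Markers of cortical excitatory neurons had a difference below 0 in 12 of 14 genes, 1 of them past the threshold (median -0.16), and Kcnq5 and Kcnip4 were themselves highest in cortex among wild-type regions. Myelin and oligodendrocyte markers had a log2 difference below 0 in knockout cortex in 11 of 13 genes, 3 of them past the threshold (median -0.37), with means of 10.77 to 10.86 in knockout and 11.004 to 11.34 in wild-type arrays. The part of these lists in the Kcn differences was not tested.

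Knockout cortex also had the widest spread among its own arrays. The SD over 3 arrays was above 0.5 on the log2 scale for 7 of 57 Kcn genes in knockout cortex (4.96% of all genes) and for 1 in wild-type cortex (0.951% of all genes), which was Kcna5. Besides Kcna1 and Kcna5, the 7 were Kcnip2, Kcnj9, Kcnab3, Kcnj12 and Kcnd2. Kcnip2 read 8.82, 8.27 and 7.28, and its other 2 probes gave 7.58, 6.82 and 5.46 and 7.25, 6.72 and 5.61 on the same arrays, so that all 3 probes put array 3 lowest. Kcnd2, the pore subunit that Kcnip2 and Kcnip4 bind, was instead lowest on array 2 (10.41, 9.40 and 10.04).

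In hippocampus 0 of 57 Kcn genes passed the threshold by limma (1.33% of all genes did), 6 had an unadjusted p under 0.05 (10.2% of all genes), and 6 did not overlap between genotypes (16.1% of all genes). Kcnh5, an ether-a-go-go channel, had the smallest p, at 5.52, 5.20 and 5.68 in knockout and 5.90, 6.19 and 5.84 in wild-type arrays (-0.51 ± 0.16, adjusted p = 0.192). The probe was detected on 1 of these 6 arrays. The next were Kcne4 (-0.27), Kcnip4 (-0.31), Kcnc4 (-0.25) and Kcnj14 (0.31), with adjusted p of 0.28 to 0.47.

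In hypothalamus 0 of 57 passed by limma (1.74% of all genes did), 7 had an unadjusted p under 0.05 (10.9% of all genes), and 6 did not overlap (19.7% of all genes). Kcnu1 had the smallest p, at 7.40, 7.40 and 7.07 in knockout and 8.04, 7.80 and 7.69 in wild-type arrays (-0.55 ± 0.15, adjusted p = 0.0869). Kcnj9 followed with a difference of 0.85 ± 0.27 (adjusted p = 0.183), then Kcnn2 (-0.37), Kcnj2 (0.50) and Kcnq3 (0.34), with adjusted p of 0.294 to 0.408. In cortex the 5 genes next to the called ones were Kcna3 (0.40), Kcnu1 (-0.45), Kcns1 (-0.35), Kcnh5 (-0.46) and Kcnk12 (-0.40), with adjusted p of 0.104 to 0.191.

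**Figure D4:**
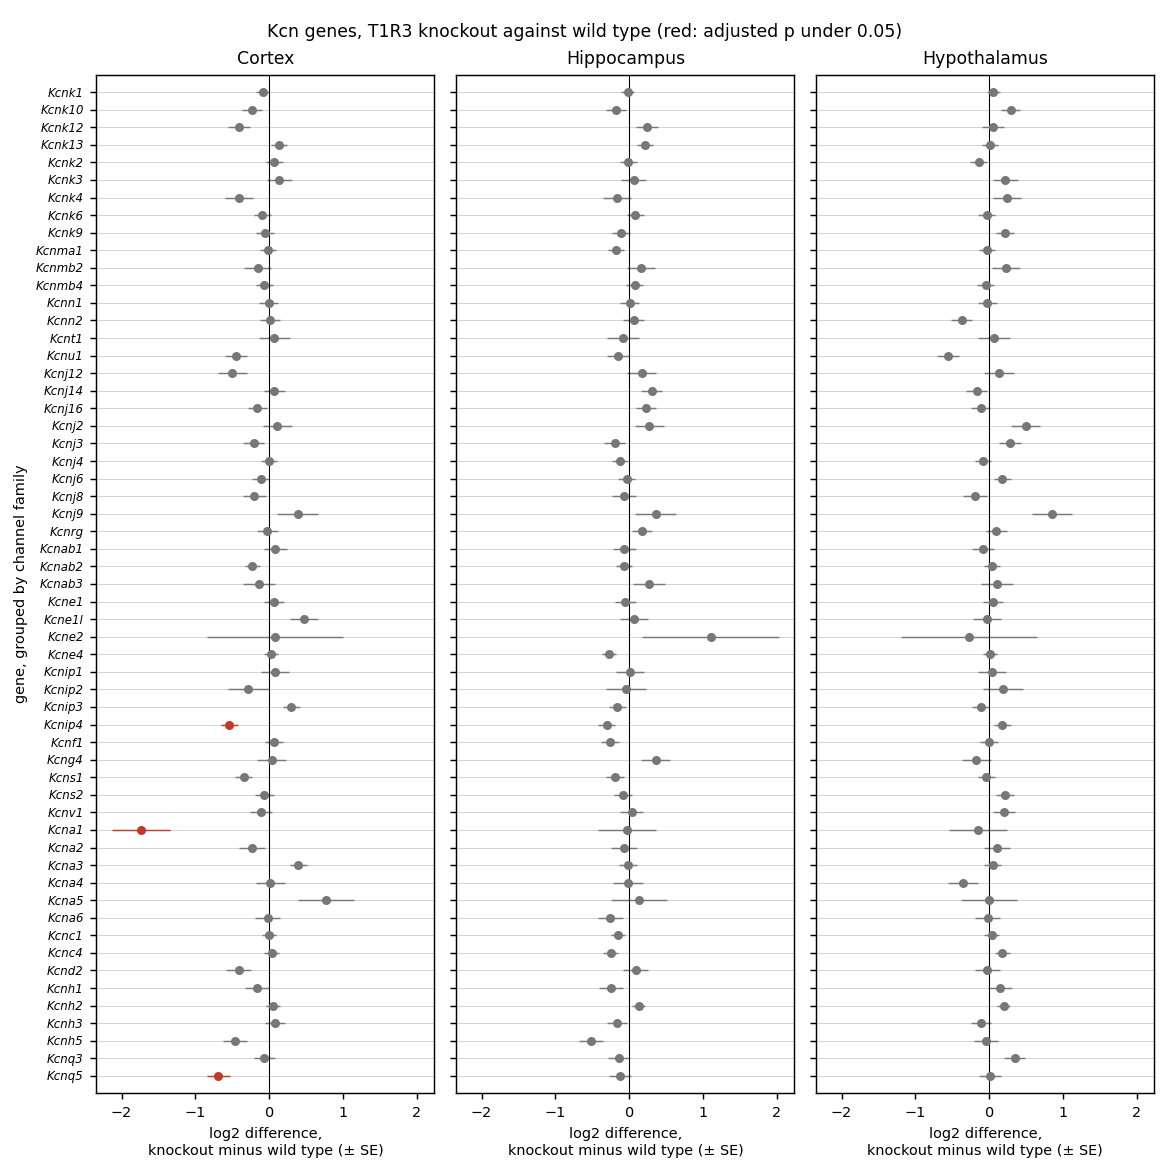
Log2 difference, knockout minus wild type (x axis, bars are SE from limma), for 57 Kcn genes grouped by channel family (y axis) in cortex, hippocampus and hypothalamus; red points have an adjusted p under 0.05. Kcna1, Kcnq5 and Kcnip4 are red and left of 0 in cortex, at -1.74, -0.69 and -0.54, and no point is red in the other panels.

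Averaged over the 3 regions, 2 of 57 Kcn genes passed the threshold (6.24% of all genes did), both lower in the knockout (3.13% of all genes). Kcnu1 encodes a pH-gated channel known from sperm. It was lower by -0.38 ± 0.09 on the log2 scale (adjusted p = 0.0123), with differences of -0.45 in cortex, -0.15 in hippocampus and -0.55 in hypothalamus. The groups did not overlap in cortex, at 7.76, 7.93 and 7.86 against 8.33, 8.34 and 8.22, nor in hypothalamus, and overlapped in hippocampus, at 7.48, 7.77 and 7.23 against 7.93, 7.45 and 7.53. Its probe was detected on all 18 arrays, and none of the 20 measured genes nearest to it on chromosome 8 was called. The call was kept when any single array was left out. Without the 3 cortex arrays high in striatum markers its difference was -0.35 (adjusted p = 0.107). Myelin and oligodendrocyte markers had a difference below 0 in 11 of 13 genes in hippocampus (median -0.19) and in 13 of 13 in hypothalamus (median -0.27), none past the threshold, and their part in the Kcnu1 difference was not tested. Kcnh5 was lower by -0.34 ± 0.09 (adjusted p = 0.0422), with -0.46 in cortex, -0.51 in hippocampus and -0.04 in hypothalamus. In hippocampus the probe was detected on 0 of 3 knockout and 1 of 3 wild-type arrays, so that part of the average comes from values near background. In cortex it read 7.10, 7.60 and 7.20 in the knockout and 7.95, 7.47 and 7.88 in the wild type, which overlap. The Kcnh5 call was kept under 9 of 29 other settings and when 1 array was left out in 6 of 18 cases, and its adjusted p ranged from 0.0131 to 0.102.

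**Figure D5:**
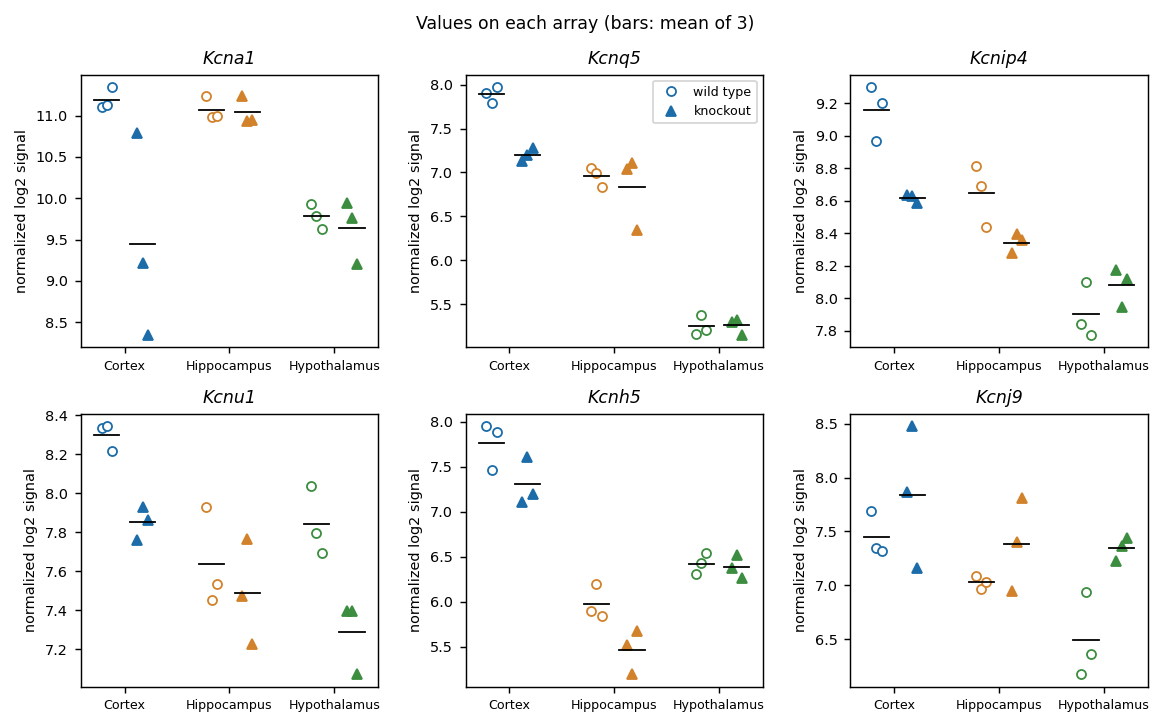
Normalized log2 signal (y axis) of Kcna1, Kcnq5, Kcnip4, Kcnu1, Kcnh5 and Kcnj9 on each array, by region (x axis, colours), with open circles for wild type, filled triangles for knockout and bars for the mean of 3 arrays. In cortex the Kcna1 triangles run from 8.34 to 10.79 and the circles from 11.10 to 11.35, whereas the Kcnq5 and Kcnip4 triangles lie close together below the circles.

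The test of whether the knockout difference varied between regions, a moderated F test in limma, called 0 of 57 Kcn genes (0.0571% of all genes were called). At an unadjusted p under 0.05 there were 9 (6.94% of all genes), with Kcnip4 smallest (adjusted p = 0.278). The Kcna1 and Kcnq5 differences seen in cortex were therefore not shown to differ from those in hippocampus and hypothalamus (adjusted p = 0.527 and 0.523). Leaving out knockout cortex array 1 made Kcna1 pass this test.

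Called genes were also counted by position. Over all 10512 genes with a place in the RefSeq gene order, a median of 1 of the 20 nearest measured genes was called in the average of regions, and 5.14% of genes had 5 or more. Of the 57 Kcn genes, 2 had 5 or more. Kcnj9, a G-protein-gated inward rectifier subunit on chromosome 1, had 10 called genes among its 20. Its own values were 7.87, 8.48 and 7.16 in knockout against 7.69, 7.34 and 7.32 in wild-type cortex, 6.95, 7.40 and 7.81 against 7.09, 6.97 and 7.03 in hippocampus, and 7.23, 7.37 and 7.44 against 6.18, 6.94 and 6.36 in hypothalamus. Only the hypothalamus values of the genotypes were separate, and the average difference of 0.53 ± 0.16 did not pass (adjusted p = 0.0597). It passed in 6 of 29 other settings, 3 of which left out 1 array. Those arrays were knockout cortex array 3, hippocampus array 1 of the knockout and hypothalamus array 2 of the wild type. Kcnab2 on chromosome 4, separated from Tas1r3 by 28 measured genes, had 5 called genes among its 20 and an average difference of -0.09 (adjusted p = 0.476). Of the 5 Kcn genes called in a knockout contrast, Kcnq5 and Kcnip4 had 1 called gene among their 20 and Kcna1, Kcnu1 and Kcnh5 had 0. The part of linked sequence from the knockout line was not tested.

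A list of 53 potassium channel partner genes (scaffolds, secreted ligands, G-protein subunits, exchangers and pumps) had 40 measured members. In cortex 1 was higher and 3 were lower in the knockout (2.59% of all genes were called there), in hippocampus 0 were called (1.33% of all genes), and in hypothalamus 1 was higher (1.74% of all genes). Averaged over the regions, 1 was higher and 3 were lower (6.24% of all genes were called). Gnb1, the G-protein beta subunit that opens the G-protein-gated inward rectifiers, was higher on average by 0.65 ± 0.09 (adjusted p = 0.000161) and did not overlap between genotypes in any region. Its cortex values were 12.50, 12.30 and 11.72 in the knockout and 11.57, 11.44 and 11.41 in the wild type. Gnb1 lies on chromosome 4 with 13 measured genes between it and Tas1r3 and had 1 called gene among its 20 neighbours. Slc24a2, a potassium-dependent sodium-calcium exchanger, lies on chromosome 4 with 418 measured genes between it and Tas1r3 and had 5 called genes among its 20 neighbours. In cortex it read 6.16, 5.37 and 5.16 in the knockout, detected on 1 of 3 arrays, and 7.55, 7.47 and 7.95 in the wild type, detected on all 3 (adjusted p = 0.000365). It was also called in the average of regions (adjusted p = 0.000227), where 2 of 9 knockout and 6 of 9 wild-type arrays detected it and no hypothalamus array did, so the size of that difference is not given. Dlg1, a scaffold that anchors Kcna and Kcnj channels, was detected on none of the 9 knockout arrays and on 8 of 9 wild-type arrays, and was at least 1.40-fold lower in knockout cortex (adjusted p = 0.039). Lgi3, a secreted partner of axonal Kcna complexes, was lower in cortex by -0.41 ± 0.09 (adjusted p = 0.0267), and Rgs7, which speeds the closing of G-protein-gated channels, was lower on average by -0.26 ± 0.06 (adjusted p = 0.019). Among the 20 neighbours of each, 1 was called for Lgi3, 2 for Dlg1 and 4 for Rgs7, which lies on chromosome 1.

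Of the 57 genes, 12 had several tested probes, and none of the 5 genes called in a knockout contrast was among them, so no second probe bears on those calls. Between wild-type regions Kcna6, Kcnh1, Kcnk2 and Kcnk4 had a probe called and another not called with the same sign. For Kcnc1, the fast delayed rectifier, the 2 probes had opposite signs for cortex minus hypothalamus and for hippocampus minus hypothalamus, so its direction between these regions is uncertain.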

How the data were processed

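Dissected tissue RNA was amplified to biotin-labelled cRNA and hybridised to Illumina mouse bead arrays, 1 array per sample. The authors deposited non-normalized signal intensity with a detection p-value per probe, exported from GenomeStudio 2011.1 per the submitters' processing notes, and a table of z scores. The deposited z score equals the log of the signal, centred and scaled within each array (largest difference 5e-10). No slide, scan date or genome build is given in the sources used here. Intensities were background-corrected with detection p-values, offset by 16, quantile-normalized and log2-transformed (neqc, limma 3.58.1, R 4.3.3). The 15476 of 25697 probes detected at p under 0.05 on 3 or more arrays were fitted with a mean per group (12 residual degrees of freedom, eBayes, Benjamini-Hochberg over all probes, threshold 0.05), and the script was tested on simulated data. Probes were named from the platform annotation, which gives no symbol for 1719 probes, and all 119 Kcn probes matched RefSeq. An "at least" fold sets a group with no detected array at its detection floor. Figures used Python 3.11 and matplotlib. Named genes were those called in a knockout contrast, the 5 with the smallest p in each region and those in runs of changed genes. Also named were the 5 furthest above both other regions in each wild-type region and the 5 with the highest mean signal. Kcnh3, Kcnj4, Kcnj3, Kcnip3, Kcnma1, Kcnmb4, Kcnt1 and the genes named for their spread (Kcnip2, Kcnd2, Kcnj12) fall outside this rule and were chosen after their values were seen. The members, lists and tests were chosen with earlier results of these data known. Arrays are separate animals per the series text. The closing section gives the alternatives tried.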

Additional observations from a re-analysis of the deposited data

How the results depend on the processing

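For 8 counts and 13 single-gene differences, values were recomputed under up to 30 other settings. None of the 13 differences changed direction, and a count has no direction to change. The counts between wild-type regions kept within 1.5 times their value under all 30: 19 to 30 for cortex and hippocampus, 39 to 46 for cortex and hypothalamus, and 35 to 44 for hippocampus and hypothalamus. The hippocampus knockout count was 0 in all 30. The cortex knockout count was 1 (Kcnq5) with only the arrays compared and 0 without knockout cortex array 3 and wild-type hippocampus array 1, a setting chosen after seeing the data. Leaving out 1 array at a time gave 0 to 4. The hypothalamus count was 2 with array weights (Kcnu1 and Kcnn2). The average count was 1 with deposited z scores, with median scaling and with no detection filter, and 5 with array weights. Leaving out 1 array at a time gave 1 to 3, and 0 to 1 for the test between regions. The count of that test without the 3 cortex arrays high in striatum markers is not given, because 1 knockout cortex array remains there. Kcnu1 was called in 28 of 29 settings and Kcnh5 in 9 of 29. The cause of these changes was not tested. Settings that leave arrays out differ both in the number of arrays and in which arrays remain. Replicate numbers 1 to 3 occur in every group, and nothing says that they pair animals: deviations of same-numbered arrays correlated between -0.278 and 0.216, over 0.1 in 3 of 9 pairs. With the replicate block the hypothalamus count was 1 (Kcnu1) and the average count 1. With 3 arrays a group, small differences and probes near background cannot be resolved.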
